A study of Caenorhabditis elegans with 2 samples.

Results

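The regions described here are the places inside autosomal protein-coding genes, between annotated exons, where the study detected the protein SOMI-1 in the nematode Caenorhabditis elegans. Of 1667 peaks kept by the study, 180 (10.8%) met the rule. The summit of such a peak had to lie on 1 of the 5 autosomes, inside a protein-coding gene and outside every annotated exon of any kind of gene. It also had to lie outside the stretch from 1000 bp upstream to 200 bp downstream of every protein-coding 5′ end, and more than 500 bp from any tRNA gene. For 179 of the 180 the summit lay in an intron of a protein-coding transcript. The remaining one, in F28F8.7 (signal 113), lay inside the gene and outside every exon but in no such intron, and is counted with the others except where intron positions and lengths are given. The other 1487 peaks included 576 autosomal peaks in promoter windows, 341 autosomal peaks between genes and 417 peaks on the X chromosome.

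Chromatin was immunoprecipitated with an anti-GFP antibody and sequenced (ChIP-seq) from whole animals of strain OP752. They carried the mutation unc-119(tm4063) and the transgene wgIs752, which holds the fusion somi-1::TY1::EGFP::3xFLAG together with unc-119(+). The animals were young adults of mixed sex, 65.5 hours old, grown from larvae synchronised by starvation at the first stage, and the chromatin had been sonicated to fragments between 200 and 800 bp. The study had 1 group with 2 biological replicates, both with this genotype, so no comparison between conditions was possible. Whole animals mix all tissues, so binding in few cells and weak binding in many cannot be told apart.

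SOMI-1 is a zinc finger protein known from the genetics of animals with too much of the microRNA mir-84. Introns of this nematode are mostly short, and the long ones often hold enhancers, the promoters of shorter transcript forms and small genes nested within the host. Small nucleolar RNAs (snoRNAs), which guide chemical modification of ribosomal RNA, are common among such nested genes, and many of them in this nematode have a promoter of their own.

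The sequences at the strongest intron summits are shown first, because the word counts given further on rest on windows of this kind. Each is the summit with 50 bp to either side of it, on the ce11 assembly (WBcel235, sequence from RefSeq), written 5′ to 3′ on the strand of the host gene. Capitals mark matches to the word GACGCA, the palindrome CACGTG or the repeat word GAGAGA on either strand. Read from the other strand the first is TGCGTC, and the repeat word is TCTCTC, and neighbouring matches can share bases. The first 5 are the 5 strongest members, at pqn-41 (chrIII:1921372-1921472 and chrIII:1925302-1925402, plus strand), epg-9 (chrIV:2602130-2602230, plus strand), pxn-1 (chrV:8500510-8500610, plus strand) and Y111B2A.12 (chrIII:12612619-12612719, plus strand).
pqn-41, strongest summit: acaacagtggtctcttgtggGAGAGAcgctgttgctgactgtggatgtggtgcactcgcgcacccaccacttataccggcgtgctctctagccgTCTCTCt
pqn-41, next strongest summit: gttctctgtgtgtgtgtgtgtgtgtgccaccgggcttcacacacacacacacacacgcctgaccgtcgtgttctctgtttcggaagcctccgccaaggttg
epg-9: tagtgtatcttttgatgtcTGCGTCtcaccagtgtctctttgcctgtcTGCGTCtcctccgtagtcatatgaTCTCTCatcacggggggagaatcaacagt
pxn-1: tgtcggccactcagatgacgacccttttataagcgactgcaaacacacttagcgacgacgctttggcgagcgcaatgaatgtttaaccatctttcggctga
Y111B2A.12: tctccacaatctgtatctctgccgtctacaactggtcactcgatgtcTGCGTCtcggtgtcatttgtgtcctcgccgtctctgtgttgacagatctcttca
The windows of epg-9 and Y111B2A.12 each held the first word. The pxn-1 window and the weaker of these pqn-41 windows held none of the 3 words, and the pqn-41 one held runs of dinucleotide repeats.

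A further set shows the words in other hosts. Windows with CACGTG lay in fkh-7 (chrIV:5591267-5591367, plus strand) and Y43F8B.2 (chrV:19529332-19529432, minus strand), and the latter also held GACGCA. That word appeared again in the pqn-41 window at chrIII:1926553-1926653 (plus strand) and in W06H8.6 (chrV:6224609-6224709, minus strand), and GAGAGA in nhr-19 (chrII:9603564-9603664, minus strand) and in a repeat at aakg-1 (chrIII:12549734-12549834, minus strand).
fkh-7: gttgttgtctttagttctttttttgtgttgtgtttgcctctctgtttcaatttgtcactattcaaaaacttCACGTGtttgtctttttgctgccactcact
Y43F8B.2: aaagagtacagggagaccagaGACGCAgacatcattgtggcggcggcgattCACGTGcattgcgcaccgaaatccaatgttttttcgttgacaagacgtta
pqn-41, downstream summit: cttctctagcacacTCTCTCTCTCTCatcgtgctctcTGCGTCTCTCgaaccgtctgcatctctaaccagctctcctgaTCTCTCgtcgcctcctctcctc
W06H8.6: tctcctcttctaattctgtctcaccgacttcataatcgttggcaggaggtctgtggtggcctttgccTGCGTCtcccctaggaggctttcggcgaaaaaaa
nhr-19: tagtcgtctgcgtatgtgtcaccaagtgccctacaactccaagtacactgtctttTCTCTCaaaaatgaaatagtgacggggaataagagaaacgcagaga
aakg-1: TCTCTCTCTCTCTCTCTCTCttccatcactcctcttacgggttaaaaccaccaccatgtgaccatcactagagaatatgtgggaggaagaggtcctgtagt
In the downstream pqn-41 window the first word ran into the repeat word, and the aakg-1 window began with a long run of the latter.

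The intron peaks had a median signal close to those of autosomal promoter and intergenic peaks. The signal is the authors' own score for a peak, has no unit, and was used only to describe and rank peaks within a list. The median signal of the 180 members was 130.1 (95% order-statistic interval 120.0 to 141), with quartiles of 106 and 186 and a range from 91.1 to 591. Autosomal promoter peaks had a median of 126 (quartiles 105.0 and 168) and autosomal intergenic peaks one of 125 (105 and 164.5). Peaks in protein-coding exons had a lower median, 109. Of the 180 members, 99 lay above the median of all thresholded peaks (124.6), 16 stood among the 100 strongest and 4 among the 20 strongest. The list is limited by this signal, since its lowest value was 91.0, and 20 members lay within 5% of it.

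The threshold kept a smaller share of intron peaks than of promoter peaks. Of the 26266 peaks called on both replicates together, the threshold kept 6.35%. The same rule applied to that joint list gave 4240 autosomal intron summits, of which the 180 members were 4.25% (Wilson 95% interval 3.68 to 4.90). For autosomal promoter summits it kept 576 of 6618 (8.70%, 8.05 to 9.41), a difference of -4.46 percentage points (Newcombe 95% interval -5.36 to -3.54).

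The strongest intron peak lay in pqn-41, whose glutamine-rich product takes part in the death of the male linker cell. Its joint signal was 591, and the replicates' own lists gave 302 and 295 at the same place. The next in the same gene had 467 (210.0 and 257.5). An intron of epg-9, which encodes the nematode homologue of the autophagy protein ATG101, carried 439 (235.3 and 208). In both replicates these values lay far above the medians over the members, which were 66.1 and 68.5.

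Next in signal came the member in pxn-1, a gene for a peroxidasin homologue of the extracellular matrix, with 438 (209.5 and 233). It sat in an intron of 341 bp, with the snoRNA gene ZK994.7 beginning 19 bp from the summit. Y111B2A.12, whose product has WD repeats, followed with 434 (200.7 and 240.3). The forkhead gene fkh-7 had 351 (187.5 and 158), Y43F8B.2 had 337 (160 and 178), and the nuclear hormone receptor gene nhr-19 had 335 (166 and 166). Among the remaining members of the 20 strongest were let-526, a subunit gene of a chromatin remodelling complex (303), zfp-1, a chromatin-associated zinc finger gene (313.5), pkg-2, a cGMP-dependent protein kinase gene (311.5), and suro-1, whose summit lay in an intron of 81 bp (262).

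**Figure D1:**
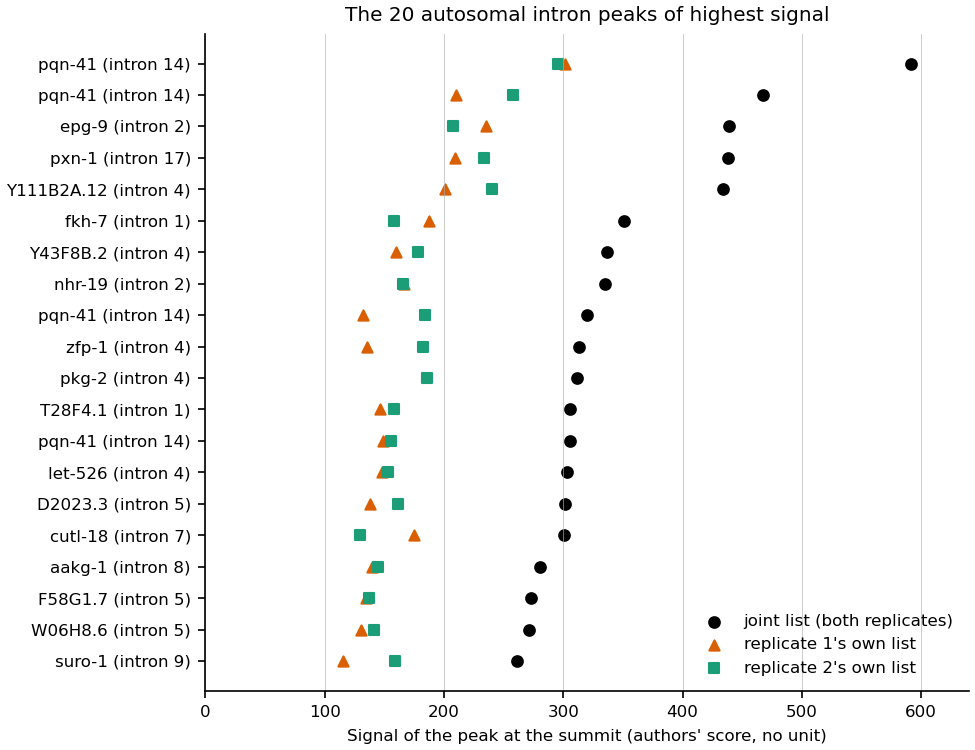
Signal (authors' score, no unit) of the 20 strongest autosomal intron peaks in the joint list and in each replicate's own list, with the intron number in the longest transcript. Both replicates gave a value at 19 of the 20 places, and at pkg-2 replicate 1 had its summit 111 bp away, outside the place compared.

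The members were present in both replicates with few exceptions. The joint list had been thresholded by irreproducible discovery rate, so presence in both replicates was partly set by the selection. The replicates' own lists were also long, with 29600 and 26067 peaks. The summit of 176 of the 180 was covered by a peak in the list of each replicate (97.8%, Wilson 95% interval 94.4 to 99.1), and each replicate alone covered 178. The share was 99.3% among autosomal promoter peaks, a difference of -1.53 percentage points (Newcombe 95% interval -4.91 to 0.203). With only the strongest 1667 peaks of each replicate, the share for the members was 71.1%. Over the 176 members the median signal was 66.1 in replicate 1 and 68.5 in replicate 2. The ratio of replicate 1 to replicate 2 had a median of 0.908 and ran from 0.364 to 3.92, and 143 of the 176 (81.25%) lay within 1.5-fold of equality.

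Across these 176 members the replicates' signals had a Spearman rho of 0.640. The members were selected on the signal of both replicates together, share 1 pair of libraries and are not independent, so no p-value is given. The replicates' own summits lay a median of 35.0 bp apart, and 111 (63.1%) within 50 bp. When the rule was applied at the replicates' own summits instead, 162 of the 176 met it at both.

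The exceptions were mostly pairs of summits close together. The pkg-2 member of signal 311.5 had no covering peak in replicate 1, where the nearest summit lay 111 bp away with a signal of 150. In daf-5, members of signal 256.5 and 129 had none in replicate 2, whose single nearby summit lay 85 bp from one and 116 bp from the other with a signal of 133. ZK131.11, at 94.1, was different, since the nearest summit of replicate 1 lay 709 bp away and had a signal of 17.97. The most unequal replicate values were 302 and 76.9 at a pqn-41 member of signal 133, which lay in the same replicate 1 peak as the strongest summit, so that 1 value was counted for both. At sel-8 (91.3) the values were 67.7 and 25.5. At the weakest of the aakg-1 members (108.5) they were 52.6 and 144.5, and this replicate 2 value was counted for the aakg-1 member of 280.2 too. Values shared between neighbouring members in this way, also found in egl-27 and zfp-1, enter the ratios and the rho given above.

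Many members shared a long host gene with another. The 180 lay in 133 distinct host genes, of which 27 held 2 or more members and 12 held 3 or more, and 74 of the 180 members lay in hosts with at least 2. The median host was 10134 bp long, against 1964 bp for all 17242 autosomal protein-coding genes. The rule asks for an intron summit away from every 5′ end, which short genes can rarely offer, so this difference is partly set by the rule. Another thresholded summit lay within 2000 bp of 67 members (37.2%). Within hosts, 47 gaps separated neighbouring members, and 12 of them measured between 190 and 230 bp, with 199 bp as the smallest, while the others had a median of 2719 bp. At this spacing a pair of summits could fall in 1 peak of a replicate, as in pqn-41 and daf-5, and whether such pairs are separate binding places was not tested. Pairs at this spacing also lay in pkg-2, zfp-1, let-526, aakg-1 and egl-27, among other hosts.

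In pqn-41 (WBGene00004128, III, 1905958 to 1939570, plus strand) 5 members lay in intron 14, which is 10372 bp long. From upstream to downstream their signals were 591, 133, 320.0, 467 and 305.5, over 5181 bp. The next annotated 5′ end of the gene began 1068 bp downstream of the last of them. No other thresholded summit lay in the gene, so all 5 of its peaks stood in this single intron.

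In pkg-2 (WBGene00015650, IV, 8520894 to 8538187, plus strand) 5 members lay in intron 4, of 6824 bp, with signals of 147, 311.5, 131, 225.5 and 210.2 in the direction of the gene. The members of 311.5 and 131 were 202 bp apart, in peaks that covered nearly the same stretch. The first intron of daf-5 (WBGene00000901), which encodes a homologue of the Ski protein in the TGF-beta pathway of dauer entry, is 14446 bp long. It carried 4 members, of 166, 107, 129 and 256.5, spread over 10311 bp. The first intron of ncl-1 (WBGene00003559), a gene that limits the size of the nucleolus, held 4 members of lower signal, from 95.5 to 141.

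zfp-1 and let-526 also held 4 members each, in 2 introns apiece. In zfp-1 the signals were 313.5, 144.0, 239.9 and 99.8, as a pair in intron 4 and a pair in intron 9, and 2 further thresholded summits of the gene lay in its own promoter windows. In let-526 they ranged from 99.3 to 303. Hosts with 3 members were fkh-7 (351, 143 and 118), aakg-1, which encodes a gamma subunit of AMP-activated kinase (280.2, 191 and 108.5), Y43F8B.2 (337, 136.0 and 94.8), hlh-30 (212, 157 and 132), daf-16 (245, 115 and 107) and egl-27 (203, 103 and 95.5). Of these, hlh-30 is the homologue of TFEB, a regulator of autophagy and lysosomes, daf-16 encodes the FOXO factor of insulin signalling, and egl-27 encodes a relative of metastasis-associated proteins.

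**Figure D2:**
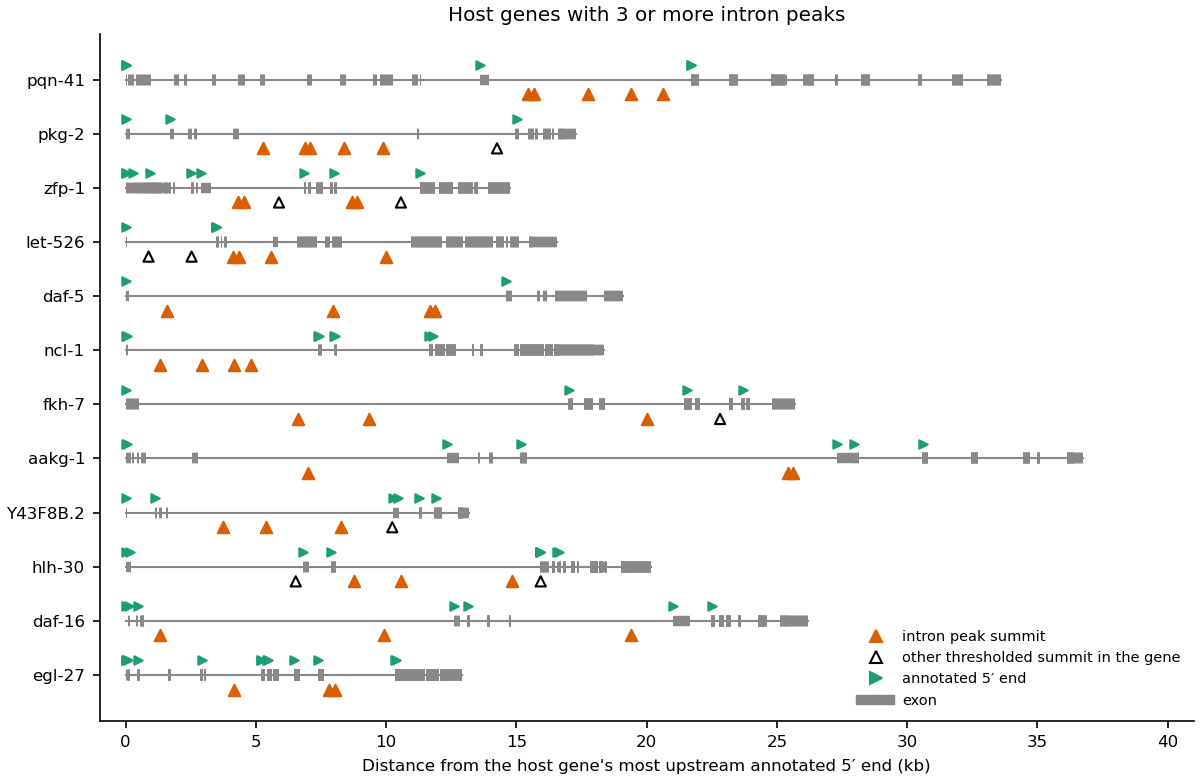
The 12 host genes with 3 or more intron peaks, drawn to scale from the most upstream annotated 5′ end (distance in kb, transcription to the right), with exons, annotated 5′ ends, intron peak summits and other thresholded summits of the gene. All 5 members of pqn-41 stand in 1 intron, whereas those of daf-16 spread over 18108 bp.

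Hosts were often bound at a promoter as well. Of the 133 hosts, 38 (28.6%, Wilson 95% interval 21.6 to 36.8) also had a thresholded summit in a promoter window of their own. For all autosomal protein-coding genes the figure was 710 of 17242 (4.12%), and for those with more than 1 annotated 5′ end it was 334 of 4551 (7.34%). The hosts are longer genes, and length was not matched in this comparison. For pqn-41, daf-5, ncl-1, aakg-1 and egl-27 no thresholded summit lay in a promoter window of the gene, whereas hlh-30 had 3.

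To see where in introns the members lay, each share was set beside the share of all sequence that meets the rule, which was 22.1 Mb or 26.8% of the autosomes. Members lay in long introns. Over the members, the intron around the summit had a median length of 3934 bp and a range from 81 to 19927 bp. For the intron around a base of that sequence the median was 978 bp. An intron with several members was counted once for each of them. Introns of 10000 bp or longer held 32 members (17.8%, 12.9 to 24.0) and 4.58% of the sequence. Those of 5000 bp and more below that held 44 (24.4%) and 8.73%, and those of 2000 bp and more below 5000 bp held 52 (28.9%) and 15.8%. Introns under 500 bp went the other way, with 16 members (8.89%, 5.55 to 13.9) and 27.65% of the sequence.

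First introns held 56 of the 180 members (31.1%, Wilson 95% interval 24.8 to 38.2), counted in the longest transcript, and 20.25% of the sequence. Second introns were near their share, with 28 members (15.6%) and 15.8% of the sequence. Introns 3 and 4 held 38 (21.1% and 24.5%), and later ones 57 (31.7%, 25.3 to 38.8, and 39.1%). Of the members 89 (49.4%) lay in the first intron of at least 1 transcript of the host, a position that took 27.75% of the sequence. In signal, first-intron members had a median of 124 (quartiles 100.9 and 162) and members in later introns one of 133 (107 and 203), so the ranges overlapped widely.

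First introns took more of the sequence in long introns than in short ones, and the lead of first introns was smaller within a class of length. In introns of 2000 bp or longer, 48 of 128 members (37.5%, 29.6 to 46.1) lay in a first intron, which took 32.7% of that sequence. Among shorter introns it was 8 of 51 (15.7%, 8.17 to 28.0) beside 15.2%. Both intervals held the share of the sequence. This division was added after the data were seen.

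Many members lay upstream of an internal start of their own host. For 112 of the 180 (62.2%, Wilson 95% interval 54.95 to 69.0), a transcript of the host had an annotated 5′ end farther downstream, against 23.1% of the sequence that meets the rule. The distance to the next such start had a median of 2701 bp, and 3238 bp over the sequence. It was over 1000 and up to 1500 bp for 18 members (10%, beside 3.55% of the sequence), over 2000 and up to 3000 bp for 26 (14.4% and 4.34%), and over 5000 and up to 10000 bp for 25 (13.9% and 5.21%). The members exceeded the sequence in each of these classes of distance. Over 10000 bp there were 6 members (3.33%, 1.54 to 7.08, beside 1.89%), and that interval held the share of the sequence. Whether the excess depends on the distance to a start was not tested.

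Length was tied to this result too. In introns of 2000 bp or longer, 106 of 128 members (82.8%, 75.4 to 88.4) had a host start downstream, against 56.0% of the sequence, and in shorter introns 6 of 51 (11.8%, 5.505 to 23.4) against 9.615%. In the shorter introns the interval held the share of the sequence. In hosts with more than 1 annotated start lay 141 members (78.3%), and 49.6% of the sequence. Many transcripts of this nematode are trans-spliced, so an annotated 5′ end need not be where transcription begins.

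Single hosts show how far the starts were. In epg-9 the next start lay 1064 bp downstream of the summit, in T28F4.1 (signal 306) 1118 bp and in jun-1, which encodes a homologue of the factor Jun (130.1), 1073 bp. In fkh-7 the strongest member lay 10390 bp upstream of the next start, inside a first intron of 16465 bp. No start of the host lay downstream of the members in pxn-1, nhr-19 or D2023.3 (302). Members with a host start downstream had a median signal of 129 (quartiles 102.5 and 196) and the others one of 137 (111 and 170). For 160 members (88.9%) the nearest protein-coding 5′ end belonged to the host itself.

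**Figure D3:**
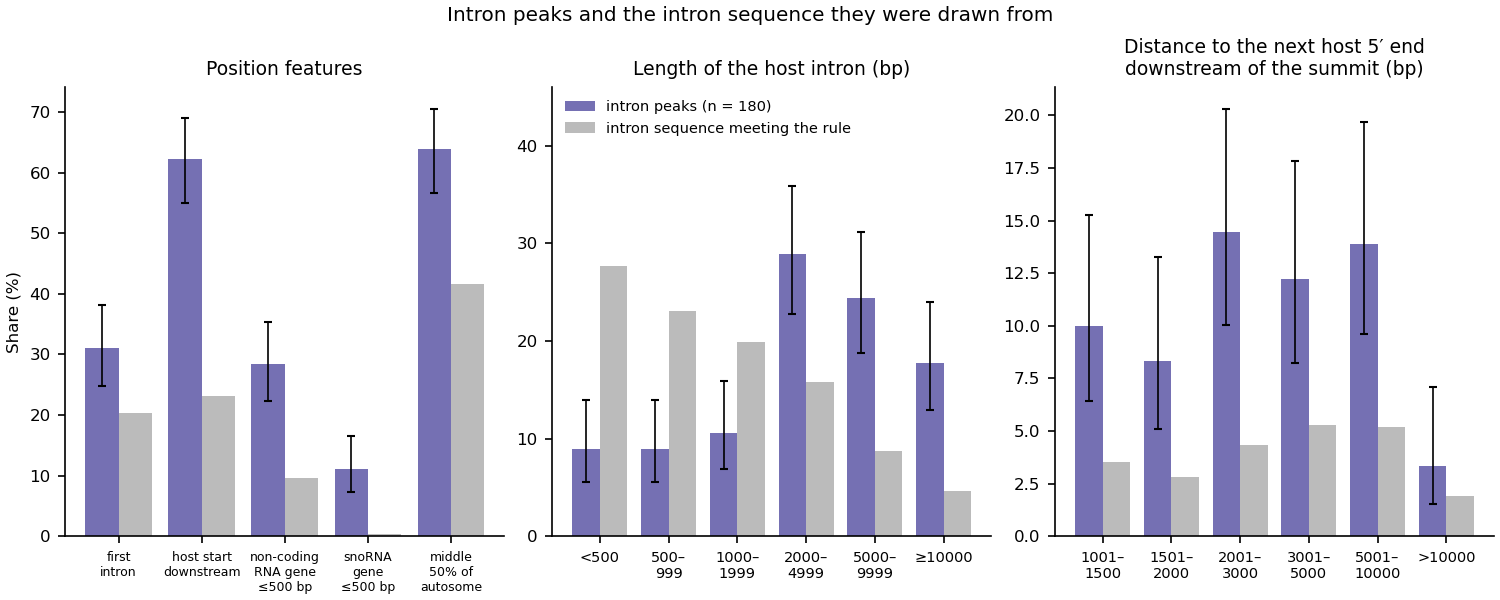
Share of the 180 intron peaks (bars with Wilson 95% intervals) and of all intron sequence that meets the rule, by position, by length of the intron (bp) and by distance to the next annotated 5′ end of the host (bp). Members exceed the sequence in introns from 2000 bp upward and fall below it in introns under 2000 bp, and 62.2% of them beside 23.1% of the sequence had a host start downstream.

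A non-coding gene other than a tRNA gene lay within 500 bp of 51 of the 180 summits (28.3%, 22.3 to 35.3), against 9.60% of the sequence. Within 200 bp the counts were 39 (21.7%) beside 5.67%, and within 1000 bp 63 (35.0%) beside 15.1%. Autosomal promoter peaks had such a gene within 500 bp in 25.35% (difference 2.99 percentage points, Newcombe 95% interval -4.13 to 10.7). Intergenic peaks had one in 33.4% (difference -5.10 points, -13.07 to 3.37), and both intervals held 0. By type, genes of unspecified non-coding RNA lay within 500 bp of 28 members (15.6% beside 4.30%) and snoRNA genes of 20. At the same distance, microRNA genes lay near 4 (2.22% beside 0.152%) and small nuclear RNA genes near 2 (1.11% beside 0.121%). For piRNA genes the count was 5 (2.78% beside 4.85%). Large intergenic and antisense RNA genes lay near 0 members, beside 0.045% and 0.157% of the sequence. A count of 0 allows a share of up to 2.09% by the Wilson interval, which held both shares of the sequence. The 28 thresholded summits that lay inside an exon of a non-coding gene within a host are not counted here, since the rule leaves them out.

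The snoRNA genes lay near 11.1% of the members (Wilson 95% interval 7.31 to 16.5), and the stretches near them took 0.307% of the sequence. The 20 members lay in 19 hosts beside 19 different snoRNA genes, each of them inside the host. For 16 members the summit lay upstream of the 5′ end of the snoRNA gene, at 4 to 407 bp with a median of 46 bp, and for 13 of these within 150 bp. Over the members, the replicates' own summits lay a median of 35.0 bp apart. For the summits nearest to a 5′ end, the side on which they lie is therefore uncertain. The rule leaves out summits inside a snoRNA exon, so the upstream share is partly set by the rule. Left out in this way were 5 summits in snoRNA exons and 2 in exons of both a snoRNA and an unspecified RNA gene. The snoRNA gene was on the strand of the host in 14 of the 20. Autosomes have 313 annotated snoRNA genes, of which 206 lie inside protein-coding genes.

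Among these members pxn-1 was the strongest. The cuticlin-like gene cutl-18 had 300.5 (replicates 175 and 129.5), 59 bp upstream of T03F7.8. In unc-41, which encodes a protein of synaptic vesicle recycling, the member had 203 (112.5 and 91.9) at 52 bp upstream of C27H6.5. The member of rol-3, a receptor tyrosine kinase gene, had 179 (112 and 63.98) and lay 5 bp upstream of C16D9.11, and that of catp-8, a cation-transporting ATPase gene, had 175 (80.3 and 103) at 80 bp upstream of C10C6.8. The 20 signals had a median of 146.5 and ran from 95.5 to 438.

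Short introns carried most of them. In introns under 2000 bp, 15 of 51 members (29.4%, 18.7 to 43.0) had a snoRNA gene within 500 bp, against 0.252% of the sequence, and in longer introns 5 of 128 (3.91%, 1.68 to 8.82) against 0.444%. Intron peaks of the joint list that did not pass the threshold had one in 21 of 4060 cases (0.517%). Autosomal promoter peaks had one in 4.86%, a difference of 6.25 percentage points (Newcombe 95% interval 1.92 to 11.9), and autosomal intergenic peaks in 6.45%, a difference of 4.66 points (-0.261 to 10.5). These are 2 of 18 differences computed between classes of peaks, and their intervals are not adjusted for that number. At cutl-18 and catp-8 the snoRNA gene was not the RNA gene nearest to the summit. The unspecified RNA gene T03F7.14 lay 24 bp from the cutl-18 summit, and C10C6.11, of the same type, 19 bp from that of catp-8. At pdl-1 the summit had 2 snoRNA genes within 500 bp.

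**Figure D4:**
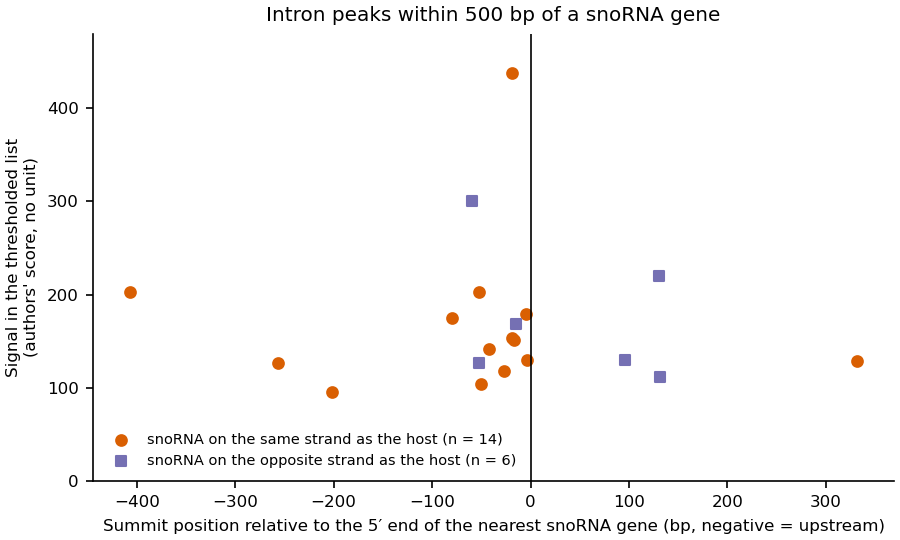
Signal (authors' score, no unit) of the 20 intron peaks within 500 bp of a snoRNA gene against the position of the summit relative to the 5′ end of that gene (bp, negative is upstream). Of the 20, 16 lie upstream of the 5′ end, and 13 of those within 150 bp. Summits inside an exon of a snoRNA gene are left out by the rule.

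Outside the snoRNA genes, the strongest members with a non-coding neighbour were those of fkh-7, 305 bp from the piRNA gene 21ur-8200, T28F4.1 (306), 36 bp from T28F4.7, and let-526 (303), 49 bp from F48C1.12. The member of F58G1.7 (273) lay 36 bp from sup-6, a small nuclear RNA gene by its annotation. Members with a non-coding gene within 500 bp had a median signal of 137 (quartiles 115.5 and 204), and those without had 125 (104 and 166). The distributions overlapped.

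Transcription factor genes held more members than their share of the sequence. In a list of 463 autosomal genes with names of transcription factors, 14 were hosts, with 24 members (13.3%, Wilson 95% interval 9.13 to 19.1), and the list held 3.75% of the sequence. Over all autosomal genes, 133 of 17242 (0.771%) were hosts. The list's members had a median signal of 143, beside 130.1 for all members. Besides fkh-7, nhr-19, daf-16, hlh-30 and egl-27, its hosts were mef-2 (241), lag-1 (241 and 146), nhr-31 (206), klf-1 (143), skn-1 (132), crh-2 (131), jun-1 (130.1), nhr-34 (129) and zip-7 (105). Of these, lag-1 encodes the DNA-binding factor of Notch signalling and skn-1 a factor of the response to oxidative stress. The hosts fkh-7, daf-16, hlh-30 and egl-27 held 3 members each, and nhr-19 and lag-1 held 2 each, so the members are not independent. Intron length and the number of annotated starts were not matched for any of the lists.

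The list of Wnt, TGF-beta, EGF, Notch and insulin signalling genes had 6 hosts among 55 autosomal genes, with 12 members (6.67%, 3.85 to 11.3) in 1.22% of the sequence. They were daf-5, daf-16, lag-1, mpk-1, daf-14 and sel-8, of which daf-16 and lag-1 were also in the list of transcription factors. The single member of mpk-1, the ERK kinase gene, had a signal of 212 (108 and 102), and that of daf-14, a SMAD gene, had 194 (81.4 and 113). The sel-8 gene, which encodes a Notch coactivator, was near the lower end of the list at 91.3. The hosts daf-5, daf-16 and lag-1 supplied 9 of the 12 members.

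The other functional lists had between 0 and 2 members each. In the extracellular matrix list the members were those of pxn-1 and mup-4 (109), 1.11% of members and of sequence alike. Heterochronic genes, which time larval development, had sea-2 (126.0) as 1 host of 16 genes, with 0.556% of members in 0.314% of the sequence. The RNA-binding and microRNA list had larp-1 (136) as 1 of 63, with 0.556% in 0.419%. The muscle list had unc-22, which encodes the giant protein twitchin (124), as 1 of 45, and the synapse list had unc-73, a guanine nucleotide exchange factor gene (124), as 1 of 65, with 0.556% of members in 1.88% of the sequence. None of the 30 genes of epidermis, seam and molting was a host, which allows up to 2.09% of members beside 0.413% of the sequence. The lists are selections of genes and do not cover every host of a function. For example, unc-41 was a host and was not counted in the synapse list. A low count in a list therefore does not show that a function is rare among the hosts.

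The autosomes differed in how densely members lay. Per Mb of sequence that meets the rule there were 10.9 members on III, 9.95 on IV, 9.42 on II, 5.55 on V and 5.49 on I, and 8.13 over all of them. The middle 50% of each autosome held 115 of the 180 (63.9%, 56.7 to 70.6), against 41.5% of the sequence. For autosomal promoter peaks the middle 50% held 67.7%. No member lay within 50000 bp of somi-1 or unc-119, the genes carried by the transgene.

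Several short words were more frequent at the summits than in the sequence to either side. Counted on both strands in windows of the summit and 50 bp to either side, GAGAGA was found in 55 of 180 members (30.6%, Wilson 95% interval 24.3 to 37.6), and in 15 of the windows 300 bp to the left and 15 to the right. Of 219113 windows of the same length that tile the sequence meeting the rule, 3.92% held it. CACGTG, a palindrome known as an E-box that many basic helix-loop-helix factors bind, was in 21 members (11.7%, 7.76 to 17.2), in 2 and 4 of the windows beside them and in 1.36% of the tiles. GACGCA was in 20 (11.1%, 7.31 to 16.5), in 4 and 6 beside them and in 1.81% of the tiles. TGATAA, which resembles the sites of GATA factors, did not follow this pattern, with 20 members (11.1%), 23 and 22 windows beside them and 8.34% of the tiles.

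The first 3 of these words lay in different members for the most part. Of the 180, 97 held none of the 3. GACGCA stood together with the repeat word in 8 members, the palindrome with the repeat word in 4, and GACGCA with the palindrome in 1, the strongest of Y43F8B.2. The median distance between word and summit was 24.5 bp for GAGAGA, 21.5 bp for CACGTG and 27.5 bp for GACGCA. Base composition moved with the words, since the median GC content was 45.5% at the summit, 36.6% in the windows beside it and 32.7% in the tiles, and its part in the word shares was not tested.

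All 3 members of Y43F8B.2 held CACGTG, as did both members of rpoa-1, which encodes the large subunit of RNA polymerase I (102 and 99.4). Other members with this word lay in D2023.3 (302), nhr-31 (206), daf-14 (194), daf-5 (107), daf-16 (107) and sel-8 (91.3). GACGCA lay in epg-9, Y111B2A.12, W06H8.6 (271), mpk-1 (212) and mnk-1 (212), and again near the lower end in lit-1 (93.5). Members with GACGCA had a median signal of 158 and those without 129, whereas for CACGTG the medians were 136 and 129.

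**Figure D5:**
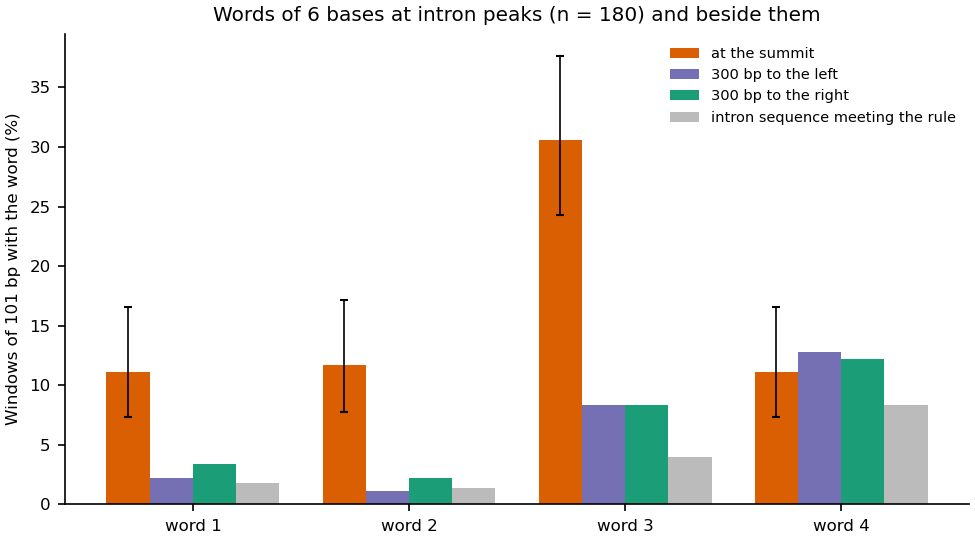
Share (%) of windows with a word at the summit (with Wilson 95% intervals), 300 bp to either side, and in tiles of the intron sequence that meets the rule, where word 1 is GACGCA, word 2 CACGTG, word 3 GAGAGA and word 4 TGATAA. The first 3 are several times as frequent at the summit as beside it, and TGATAA is not.

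The words were also counted at the other classes of autosomal peaks. GACGCA was in 17.36% of promoter peaks (difference -6.25 percentage points, Newcombe 95% interval -11.3 to -0.108) and in 14.96% of intergenic peaks (difference -3.85, -9.49 to 2.56). The first interval nearly reached 0 and belongs to the 18 unadjusted differences, and the second held 0. For CACGTG the difference from promoter peaks was 2.64 points (-2.07 to 8.53), and for GAGAGA it was 4.17 points (-3.13 to 12.03), both intervals holding 0. Among intron summits of the joint list that did not pass the threshold, GACGCA was in 2.91%, CACGTG in 2.24% and GAGAGA in 8.99%.

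Further words were ranked by their excess at the 83 members on chromosomes II and III and then counted at the 97 on the other autosomes. Both sets come from the same pair of libraries, so the second count is a description and not an independent check. GAGAGA, already counted over all members above, was in 30 of the first and 25 of the second, where 8 and 7 of the flanking windows held it. The shifted repeat AGAGAG was in 29 and 20, with 5 and 3 beside the second set, and GACACA in 13 and 10, with 3 and 1. AGAGAA, the word of highest rank, was in 34 and then in 26, where 20 and 12 of the windows beside it also held it, so its excess was smaller on the second set. The excess of ACGAGA did not hold there, with 16 members in the first set and 6 in the second, where 3 and 6 of the windows beside them held the word. Several of these words are the same repeat read in another frame and are not separate observations.

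At the edges of the rule, distances run to the 5′ end of any protein-coding gene, which need not be the host. The closest member to the upstream limit was in mdt-26, a gene of the Mediator complex, 1 bp beyond the 1000 bp (signal 233). That limit came from another gene, since the summit lay 606 bp downstream of the only annotated start of mdt-26. The nearest summit left out was in nhr-34 at 984 bp (108.0). On the downstream side the unc-73 member was kept 1 bp beyond the limit (124). The limit there was measured from the 5′ end of F55C7.2, which also holds the summit. The summit in pyk-1 was left out at 199 bp (109.5). For tRNA genes the nearest member was that of pxn-1, at 924 bp, and the summit left out closest to the limit was in spe-15, at 107 bp (135).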

How the data were processed

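Chromatin immunoprecipitation from 2 biological replicates of 1 group was used, as 4 peak lists on ce11, per the labels. The authors called peaks on each replicate and on both together, each with 1 control alignment, and thresholded the joint list by irreproducible discovery rate, per the text files that came with the lists. The signal and the −log10 q-value of each peak were deposited by the authors, and neither was tested. The aligner and caller, with their settings, and the depth of reads were not given in the sources used here.

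Summits were placed on the Ensembl release 115 annotation of WBcel235, with sequence from RefSeq, using Python 3.11.15, pandas 2.3.3 and numpy 2.4.6. Positions are 1-based. Shares carry Wilson and differences Newcombe 95% intervals, which cover counting error only and treat peaks as independent. No p-value was computed. The rule was checked on simulated summits. Words and windows were set as in the text. A replicate's peak covers a member if it holds its summit. Named are the hosts of the 20 strongest members, hosts with 3 or more members, hosts in the 8 gene lists, the strongest members near a non-coding gene and the members at the limits of the rule. Further hosts of words, of snoRNA genes and of unequal replicates were named after their values were seen. The members, the words and the gene lists were chosen with earlier results of these data known. Sequences are shown for a selection of members only. Whether these places are particular to SOMI-1 was not tested, since peaks of other factors were not used.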

Additional observations from a re-analysis of the deposited data

How the results depend on the processing

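The number of members was 99 in the upper 50% of the thresholded list by signal, where 12 hosts had several members and the median signal was 169. Other settings gave 127 members (window of 2000 bp upstream to 500 bp downstream) to 213 (500 and 100 bp), 208 with protein-coding exons only, 190 without the tRNA limit, 169 after merging peaks and 183 with RefSeq gene models. The replicates' own lists held 29600 and 26067 peaks. Taking only the strongest peaks of a single such list gave 183 to 186 members, a count set in part by that cut. The median signal there was 65.1 to 65.2, on the scale of that list, and at the members it was 66.7 in replicate 1 and 68.5 in replicate 2. Presence in both replicates fell to 90% with a reciprocal overlap of 50% and to 71.1% with the strongest 1667 peaks of each replicate, and it has no value without a replicate. The first-intron share was 49.4% when any transcript counted. The share with a host start downstream was 32.8% within 3000 bp and 54.9% with the strongest member of each host only, a setting chosen after seeing the data. The share with a non-coding gene was 37.5% with protein-coding exons only and 21.7% within 200 bp. A narrower middle zone, 1 part in 3 of each autosome, held 45%. GACGCA was in 3.89% of windows with 25 bp to either side and 19.4% of those with 100 bp, and CACGTG in 6.11% and 18.9%. Settings that widen or narrow a definition move these values by construction, and for the strongest member of each host the cause was not tested. No paired analysis was possible because there was 1 group, and no result comes from a test. Depth was not known, so its limit on weak peaks was not measured.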
